A study of Mus musculus with 4 samples.

Results

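The genes described here encode the subunits of voltage-gated calcium channels, voltage-gated sodium channels and the hyperpolarization-activated HCN channels. They were taken by symbol alone: every listed gene whose symbol begins with Cacna, Cacnb or Cacng, every Scn gene with a number and the letter a or b, and every numbered Hcn gene. This gave 42 of the 20136 genes listed in the 4 count tables. They are 10 Cacna1 genes, 4 Cacna2d genes, 4 Cacnb genes, 8 Cacng genes, 8 sodium channel alpha genes, 4 sodium channel beta genes and 4 Hcn genes. Of these, 38 were listed in all 4 tables; Cacna1f, Cacna1s, Cacng1 and Cacng6 were listed in fewer and were set to 0 elsewhere. Scn2a1, the older symbol of the sodium channel gene Scn2a, ends in a digit and so is not among the 42; its neuronal level is given once for orientation.

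The libraries were made by Drop-seq, which captures single cells with barcoded beads in droplets and counts the 3' ends of their transcripts by unique molecular identifier (UMI). The tissue came as BNST punches (bed nucleus of stria terminalis, a part of the extended amygdala) from wildtype male C57BL/6J mice kept on a reversed light cycle, with 6 mice pooled in each of 4 libraries (24 in all). All libraries form 1 group: there was no treatment, the labels give no age or dissection coordinates, and the study's title concerns prepronociceptin neurons, which express the gene Pnoc. Comparisons are therefore between kinds of cells within the libraries, and the library, a pool of animals, is the replicate.

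Calcium channels admit calcium when the membrane depolarizes. Their pore is a Cacna1 protein, which sets whether the channel is of the L, P/Q, N, R or T type; alpha-2-delta proteins (Cacna2d) and beta proteins (Cacnb) bring the high-voltage-activated pores to the membrane and tune their gating. The Cacng genes are named for the gamma subunit of the muscle channel, but several of them (Cacng2, Cacng3, Cacng4, Cacng5, Cacng7 and Cacng8) encode transmembrane AMPA receptor regulatory proteins, which traffic and tune glutamate receptors. Sodium channels carry the upstroke of the action potential through an alpha subunit and are modified by beta subunits, and HCN channels carry the cation current that opens on hyperpolarization and sets resting potential and rhythm.

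The tables held 2640399 to 5652342 UMIs per library. After filters on genes per barcode, mitochondrial share and doublets, 4181 cells with a median of 1849 UMIs remained, and no kept barcode was shared between libraries. Cells were assigned to classes by UMIs of marker genes that are not channel genes. The classes held 2530 neurons (median 3176.5 UMIs), 916 oligodendrocytes (1385 UMIs), 398 astrocytes (815.5 UMIs), 47 oligodendrocyte precursor cells (OPC, 1114 UMIs) and 71 vascular cells (808 UMIs). OPC sums of at least 10 cells came from libraries 1, 3 and 4, and vascular sums from libraries 1, 2 and 3. Levels are CPM: the UMIs of a gene over all UMIs of a class in a library, scaled to 1000000. They are not scaled by transcript length and come from 3' ends, so an order between genes is one of UMIs, not of molecules of protein or channel. The counting strand is not given in the sources used here, and 15 of the 42 genes overlap a listed gene on the opposite strand, whose reads cannot be told apart from theirs. Those described here are Cacna1a, Cacna1c, Cacna1d, Cacna1h, Cacna2d3, Cacna2d4, Cacnb4, Cacng2, Cacng4, Hcn3, Scn1a, Scn3a and Scn9a.

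The classes were compared on markers held out of the gates, over all 4 libraries. The 5 OPC of library 2 and the 9 vascular cells of library 4 enter this check, though they are too few for the sums described above. Of 10 held-out neuronal genes, the median level in oligodendrocytes was 2.09% of that in neurons (range 1.03 to 3.24%). In astrocytes it was 3.80% (1.00 to 8.77%), in vascular cells 1.37% (0 to 7.97%) and in OPC 14.4% (0 to 34.7%). The summed neuronal gate genes reached 12049 to 15984 CPM in neurons, 163 to 348 in oligodendrocytes, 265 to 726 in astrocytes and 354 to 702.9 in OPC. Channel levels in glia near these percentages of the neuronal level are therefore not set apart from those of the held-out neuronal genes. Whether such RNA came from neurons or from the glia, and its part in any result, was not tested. Held-out markers of the glial classes were less clean. Of the vascular ones, Sparcl1 and Sparc stood in astrocytes at 439% and 106% of their vascular level. Of the OPC ones, Olig1 reached 39.1% of its OPC level in oligodendrocytes and Ptprz1 48.1% in astrocytes, and the astrocyte gene Mt3 reached 22.7% in neurons. The held-out oligodendrocyte genes stayed at or below 3.71% of their own level in every other class.

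Neurons carried most of the channel transcripts. The 42 genes together made 2356 ± 383 CPM in neurons (SD, n = 4), 233 ± 7.89 in oligodendrocytes, 342 ± 23.3 in astrocytes and 225 ± 70.3 in vascular cells (n = 3). OPC stood beside neurons at 2955 ± 880 CPM (n = 3), of which 1848 ± 479 CPM came from the Cacng genes. Within neurons the sodium channel alpha genes summed to 574 CPM, Cacnb to 371, Cacna1 to 363, Cacna2d to 349, the sodium channel beta genes to 324 and Cacng to 324. By single gene, 8 members reached at least 100 CPM, 17 lay from 20 to under 100, 8 from 5 to under 20 and 9 below 5.

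The sodium channel genes included 5 of the 12 with the highest neuronal levels. Scn3a, a neuronal alpha subunit, was at 193, 174, 263 and 195 CPM in libraries 1 to 4. Scn1a, the alpha subunit known from inhibitory interneurons, was at 165, 142, 219.7 and 159 CPM. Scn8a, the alpha subunit of the axon initial segment and nodes, was at 70.2, 65.8, 146 and 115 CPM. Library 3 was the highest for all 3 of these genes. The beta subunit Scn2b was at 169.9, 205, 202 and 183 CPM, and the beta subunit Scn3b at 75.3, 77.6, 96.6 and 104 CPM. Among the remaining sodium channel genes Scn9a averaged 69.1 CPM, Scn4b 8.84 and Scn7a 3.47. The sensory neuron genes Scn11a and Scn10a were at 2.29 and 0.771 CPM. Scn2a1, outside the 42, stood at 442, 457, 731 and 623 CPM, above each of them in every library.

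Among the calcium channel genes, Cacnb4, a beta subunit, was the highest of the 42 at 245, 257, 311 and 226 CPM. The alpha-2-delta gene Cacna2d2 was at 151, 167, 174 and 162 CPM and varied little between libraries (163 ± 9.77, SD, n = 4). Cacna2d1, which encodes the best known gabapentin-binding alpha-2-delta, was at 106, 87.5, 161 and 125 CPM. The N-type pore Cacna1b was the highest Cacna1 gene, at 92.8, 104, 165 and 142 CPM, followed by the R-type pore Cacna1e at 58.6, 65.8, 94.6 and 88.1 CPM. The P/Q-type pore Cacna1a averaged 42.5 CPM, the L-type pores Cacna1d and Cacna1c 41.2 and 16.3, and the T-type pores Cacna1g, Cacna1h and Cacna1i 26.0, 17.1 and 16.8. The retinal and muscle pores Cacna1f and Cacna1s had 1 UMI each in all neurons.

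The AMPA receptor regulators Cacng4 and Cacng2 completed the 12. Cacng4 was at 113, 138, 175 and 156 CPM, and Cacng2, which encodes stargazin, at 89.1, 69.7, 96.6 and 104 CPM. Of the HCN genes, Hcn3 averaged 15.3 CPM, Hcn2 11.3 and Hcn4 2.02. In the order of these 12 levels each neighbouring pair of means lay closer than the larger SD of the pair, except Cacnb4 (259.6 ± 36.5) and Scn3a (206 ± 39.4). The libraries themselves differed: the 42 genes summed to 2008, 2087, 2830 and 2501 CPM in libraries 1 to 4, while the median depth of neurons was 4275.5, 3470, 2889.5 and 2460 UMIs. In libraries 2, 3 and 4, 26, 34 and 36 of the 42 genes were above their level in library 1. The share of all genes above library 1 was not taken, so these counts show nothing particular to the channel genes. The part of depth in them was not tested. Class comparisons below are paired within libraries.

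Compared with oligodendrocytes, most of the 42 genes were higher in neurons. In a fit with no low-count filter, which keeps all 42, 32 were called higher and 2 lower in neurons (edgeR quasi-likelihood test, Benjamini-Hochberg adjusted p under 0.05), against 26.3% of all 19476 genes called higher and 13.6% lower. The median log2 difference was 4.65 for the 42 and 0.63 for all genes. In 19 of the 42 no UMI was seen in oligodendrocytes. With the usual filter only 9 of the 42 were tested; all 9 were called higher in neurons, where 45.7% of 4872 genes were. The 9 passed that filter because they are abundant in neurons, so this count is no support for a difference. A fit of neurons, oligodendrocytes and astrocytes alone tested 20 of the 42 and called all 20 higher than in oligodendrocytes (39.5% of 7507 genes) and 17 higher than in astrocytes (33.6%), with the same limit.

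The size of the neuron to oligodendrocyte difference varied widely. The largest was that of Scn2b, listed at 0, 0, 0 and 6.89 CPM in oligodendrocytes of libraries 1 to 4, a mean 110.2-fold below neurons (log2 difference 6.79, SE 0.40). Cacna1b was at 3.81 CPM in oligodendrocytes of library 1 and 0 in the other libraries (6.18, SE 0.45). Cacna2d2 lay between 1.90 and 3.45 CPM in oligodendrocytes (5.67, SE 0.37), Scn1a between 0 and 10.3 CPM (5.21, SE 0.34) and Scn3a between 0 and 12.4 CPM (5.07, SE 0.31). These levels are a few percent of those in neurons or less, as were those of the held-out neuronal genes.

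Cacnb4 differed the least of the 9. It stood at 129.5, 160.2, 117 and 103 CPM in oligodendrocytes, 49.1% of its neuronal level and far above the percentages of the neuronal markers. Neurons were higher in each of the 4 libraries, by a mean of 1.03 ± 0.31 in log2 of CPM plus 1 (SD, n = 4, exact sign-flip permutation p = 0.125, the smallest that 4 libraries allow). Across all genes the edgeR quasi-likelihood test gave 0.81 (SE 0.14, adjusted p = 4.79e-08). A Cacnb4 UMI was seen in 139 of 916 oligodendrocytes (15.2%, exact 95% interval 12.9 to 17.7%), in 50.5% of neurons and in 2 of 398 astrocytes (0.503%). This interval, like those below, pools the cells of all libraries and leaves out the spread between libraries. Brought to 1000 UMIs per cell the shares were 9.47%, 22.5% and 0.809%; shallower cells were left out of these, 220 of 916 oligodendrocytes, 364 of 2530 neurons and 283 of 398 astrocytes. In astrocytes the level was 8.98, 0, 0 and 13.4 CPM, 2.16% of that in neurons and within the percentages of the neuronal markers. OPC held Cacnb4 at 67.0, 151 and 184 CPM in libraries 1, 3 and 4, on 7 UMIs, and it was not called between OPC and oligodendrocytes. Its level is therefore not particular to oligodendrocytes among the glial classes.

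A second gene with a clear oligodendrocyte level was Cacna2d1, at 13.3, 12.1, 12.4 and 27.6 CPM; it remained lower than in neurons (2.70, SE 0.27, adjusted p = 1.62e-23, edgeR quasi-likelihood test). Scn8a was at 20.95, 9.07, 12.4 and 17.2 CPM in oligodendrocytes (2.40, SE 0.28). Hcn2, the cyclic AMP-sensitive HCN subunit, was above its neuronal level in oligodendrocytes of every library: 11.4, 6.05, 29.8 and 34.5 CPM against 6.65, 4.94, 15.2 and 18.4 CPM in neurons. This difference of 0.69 ± 0.31 in log2 of CPM plus 1 (SD, n = 4, exact sign-flip permutation p = 0.125) rests on 30 UMIs in oligodendrocytes. In the unfiltered fit neurons were lower by 1.03 (SE 0.38, adjusted p = 0.0174, edgeR quasi-likelihood test). The alpha-2-delta gene Cacna2d4 was likewise higher in oligodendrocytes in 4 of 4 libraries, at 13.3, 6.05, 12.4 and 3.45 CPM against 1.23, 1.48, 0 and 1.89 CPM, on 15 UMIs (unfiltered fit -2.99, SE 0.78, adjusted p = 0.000444). Hcn2 and Cacna2d4 are the 2 genes called lower in neurons in that fit.

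Against astrocytes the unfiltered fit called 26 of the 42 genes higher in neurons at adjusted p under 0.05 and did not call the other 16 (edgeR quasi-likelihood test), where 19.9% of all genes were called higher. The median log2 difference was 3.31 for the 42 and 0.67 for all genes. With the filter 8 of 9 were called higher, where 38.8% of 4872 genes were. Cacna2d2 kept the largest astrocyte level of the alpha-2-delta genes, at 71.8, 119, 48.3 and 67.2 CPM, and took a mean 83.1% (range 62.5 to 100%) of that family's UMIs over the 4 libraries, on 33 UMIs in all. Its difference from neurons was 0.99 (SE 0.29, adjusted p = 0.00135, edgeR quasi-likelihood test), and 23 of 398 astrocytes held a UMI of it (5.78%, exact 95% interval 3.70 to 8.55%) against 4 of 916 oligodendrocytes (0.437%). Scn8a was at 18.0, 106, 86.9 and 53.8 CPM in astrocytes, which overlaps the neuronal range, and its difference of 0.49 (SE 0.33) was not called in the filtered fit (adjusted p = 0.188). It was called in the unfiltered fit (0.83, SE 0.33, adjusted p = 0.0379), and without library 2 (0.93). Cacna1d, an L-type pore, was at 53.9, 26.5, 29.0 and 40.3 CPM in astrocytes and 28.1, 31.6, 64.9 and 40.1 CPM in neurons, with neurons higher in 2 of 4 libraries. Cacng7 was at 35.9, 26.5, 29.0 and 0 CPM in astrocytes, on 9 UMIs, against 12.8, 3.46, 13.2 and 7.54 in neurons (exact sign-flip permutation p = 0.75, on log2 of CPM plus 1). Oligodendrocytes held it too, at 11.4, 12.1, 17.4 and 3.45 CPM, on 18 UMIs.

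In OPC, Cacng4 stood far above every other class. It was at 2210.5, 1305 and 2027 CPM in libraries 1, 3 and 4, against 113, 175 and 156 CPM in neurons of the same libraries and at most 53.8 CPM in any astrocyte sum and 10.3 CPM in any oligodendrocyte sum. The OPC values do not overlap those of any other class. The log2 difference of neurons from OPC was -3.12 (SE 0.24, adjusted p = 4.06e-36, edgeR quasi-likelihood test), and that of OPC over oligodendrocytes 8.04 (SE 0.41, adjusted p = 8.84e-84). At least 1 Cacng4 UMI was found in 38 of 47 OPC (80.9%, exact 95% interval 66.7 to 90.9%), 34.9% of neurons, 0.655% of oligodendrocytes and 2.26% of astrocytes. At 1000 UMIs per cell the shares were 74.0%, 13.4%, 0.329% and 2.39%, with 22 of the 47 OPC too shallow to enter. By library the OPC share ran from 62.2 to 91.3% (3 libraries) and the neuronal share from 11.5 to 17.9%. A wider gate of 89 OPC, with cells in all 4 libraries, gave -3.12 (SE 0.19, adjusted p = 1.05e-58).

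Other channel genes were seen in OPC on few UMIs. Scn3a was at 402, 50.2 and 369 CPM in libraries 1, 3 and 4 (13 UMIs), above oligodendrocytes by 4.78 (SE 0.75, adjusted p = 3.14e-09, edgeR quasi-likelihood test) and with a range that spans the neuronal one. Scn1a was at 201, 50.2 and 61.4 CPM (3.79 over oligodendrocytes, SE 1.08, adjusted p = 0.00255); without library 1 this was 2.60 with adjusted p = 0.23. Cacna2d2 was at 0, 100.4 and 61.4 CPM (3.71, SE 1.37, adjusted p = 0.0256), and it was not called with the wider gate (2.87, adjusted p = 0.0640) nor without library 3 (2.72) or 4 (3.64). Together with Cacng4 these were the 4 of 9 tested genes called higher in OPC than in oligodendrocytes, where 14% of 4872 genes were. Held-out neuronal genes stood at a median 14.4% of their neuronal level in OPC, over all 4 libraries. The part of neuronal RNA in these 3 results was not tested. Neurons against OPC gave 5 genes called higher and 1 lower, where 23.4% and 10.8% of genes were, but with size factors by relative log expression 2 higher (Cacna2d1, 2.90, and Scn2b, 3.40) and 1 lower (15.8% and 13.5%). On simulated counts with these library sizes and the same TMM scaling, 32 of 41 calls between neurons and OPC were wrong. In vascular cells 31 of the 42 genes had no UMI, and no Scn alpha, Cacng or Hcn UMI was seen; all 9 tested genes were called higher in neurons, where 34.1% of genes were. These are the 9 genes that passed the filter on low counts, so this count, like that of 8 of 9 for astrocytes, supports nothing about the 42.

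**Figure D1:**
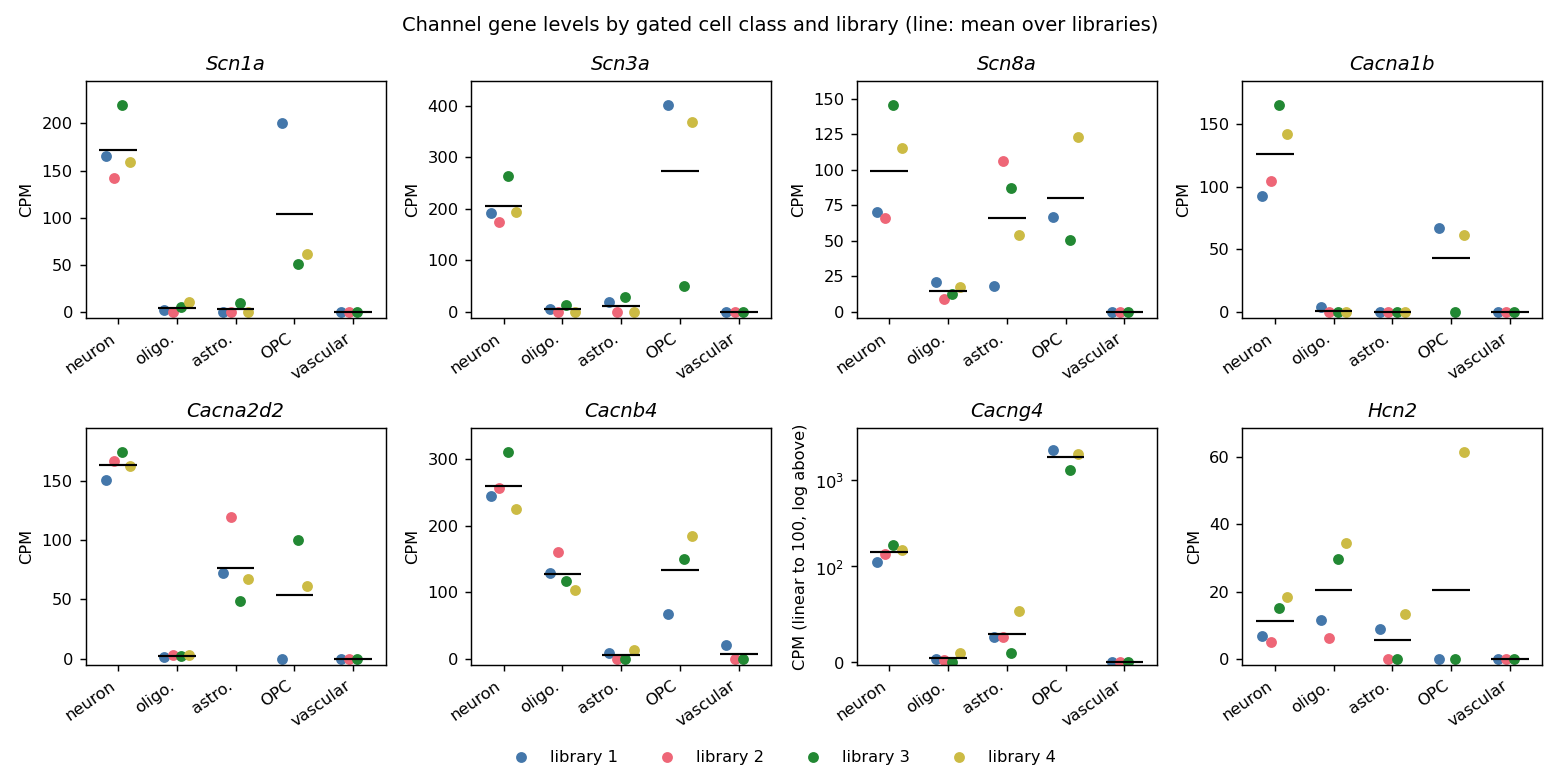
Levels of 8 channel genes in CPM (the Cacng4 axis is linear to 100 and logarithmic above) in 5 gated cell classes; each point is a library and each line the mean over its libraries. Cacnb4 keeps 49.1% of its neuronal level in oligodendrocytes, Cacng4 lies at 1305 to 2210.5 CPM in OPC, and Hcn2 is above its neuronal level in oligodendrocytes of all 4 libraries.

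Genes of proteins that work with these channels were read from 4 lists chosen by function. Of all 4872 genes tested between neurons and oligodendrocytes 3666 were called, and 2226 (45.7% of those tested) were called higher in neurons. The same filter on low counts applied, so the counts below describe the lists and support nothing particular to them. Of 9 sodium channel partners, 5 were tested between neurons and oligodendrocytes: Fgf12 (5.14) and Fgf13 (4.70), both intracellular sodium channel regulators, were among 2 called higher in neurons, and 3 were called lower. Nfasc, the neurofascin of nodes and initial segments, whose glial form is part of the paranodal junction, averaged 84.1 ± 19.5 CPM in neurons and 697 ± 122 in oligodendrocytes (-3.30). Of 12 calcium channel partners 2 were tested and both were higher in neurons (Rims2, 2.88; Cachd1, 2.39). Of 5 genes of the HCN partner Pex5l and the NALCN leak complex 4 were tested, with 3 higher (among them Unc80, 5.36, and Fam155a, 3.52) and Pex5l lower (68.7 ± 3.77 CPM in neurons against 739 ± 90.8 in oligodendrocytes, -3.62, adjusted p = 1.37e-194, edgeR quasi-likelihood test). Pex5l encodes TRIP8b, an auxiliary subunit of HCN channels. Of 18 calcium handling genes 7 were tested, with 5 higher and 1 lower; the pumps Atp2b2 (5.60) and Atp2b4 (4.81) and the ryanodine receptor Ryr2 (4.52) had the largest sizes.

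Neurons were then divided by marker genes into 12 subtype gates. Each is named by its genes, but the Zic1 list also holds Zic4 and the Slc17a6 list also holds Slc17a7. Of these gates, 10 had sums of at least 10 cells in 3 or 4 libraries. They held 69 to 244 cells: Sst/Npy 244, Ppp1r1b/Crym 160, Crh/Wif1 142, Tac2/Ebf1 137, Cck/Greb1 132, Tshz1/Foxp2 118, Zic1 105, Six3 83, Slc17a8 80 and Slc17a6 69. Tac2/Ebf1 and Slc17a6 had no such sum in library 3, and the Lhx8 (26 cells) and Prkcd (34 cells) gates gave a sum in library 2 only. The 989 neurons that entered no gate and the 211 that fell between gates are not in these comparisons. Median depth ran from 2328.5 UMIs in Tshz1/Foxp2 to 5644 in Cck/Greb1 cells; its part in the differences below was not tested beyond the thinned values given later.

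Of the 42 genes 30 were tested across subtypes and 16 were called different (edgeR quasi-likelihood F-test, adjusted p under 0.05), where 22.3% of 8739 genes were. A gene can pass the low-count filter through a single sum where it is high. Counts of called members among subtypes are therefore no support for a trait of the 42. The alpha-2-delta genes led: Cacna2d1 (F = 16.2, adjusted p = 1.62e-17), Cacna2d2 (F = 14.3, 1.02e-15) and Cacna2d3 (F = 12.4, 6.61e-14). Next came Cacnb4 (F = 9.74, 4.56e-11), Scn4b (9.55, 1.33e-10), Cacng3 (5.90, 1.73e-06), Cacna1g (5.01, 2.46e-05), Scn1a (4.81, 4.30e-05), Cacng2 (4.19, 0.000267) and Scn7a (3.58, 0.0019). Cacnb1, Cacng4, Cacng5, Scn3a, Cacna1e and Hcn3 were also called. The 14 not called included Cacna1b and Cacna1a, the N- and P/Q-type pores of synaptic terminals, and Scn8a, Scn2b, Scn9a, Scn3b, Cacna1c and Cacna1d. Each subtype was also compared with the mean of the others; where a subtype with a single sum is at 0 that mean is low, so the paired comparison with the summed cells of all other gates is given beside it.

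**Figure D2:**
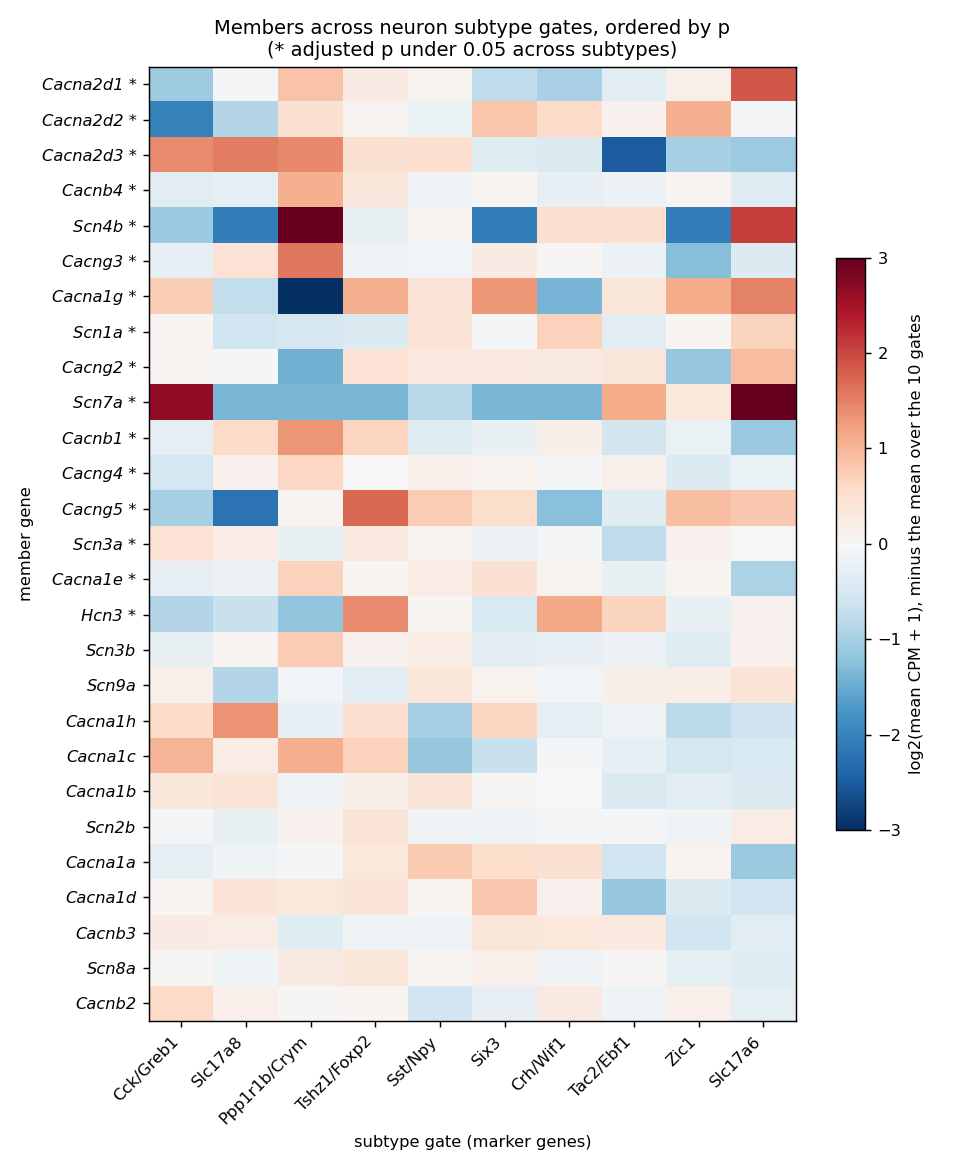
Each cell is the log2 of a gene's mean CPM plus 1 in a subtype gate minus its mean over 10 gates, for 27 of the 30 tested channel genes (3 are not shown here); colours stop at 3 in either direction, and an asterisk marks the 16 called across subtypes. Scn4b, Cacng3 and Cacnb4 stand out in the Ppp1r1b/Crym column, Cacna2d1 in the Slc17a6 column, and Cacna2d2 is lowest in the Cck/Greb1 column.

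The 3 neuronal alpha-2-delta genes took different places among the subtypes. Cacna2d1 lies on chromosome 5 (chr5:15934691-16374511, plus strand, GRCm38), Cacna2d2 on chromosome 9 (chr9:107399612-107529343, plus) and Cacna2d3 on chromosome 14 (chr14:28904943-29721864, minus, with Lrtm1 on the opposite strand). The 250 bases before the start of Cacna2d1 and Cacna2d3, which peaked in different subtypes, are shown from RefSeq on GRCm38.p6 (chr5:15934441-15934690, plus strand, and chr14:29721865-29722114, minus strand), 5′ to 3′; capitals mark the GC box GGGCGG on either strand, the cyclic AMP half-site TGACG and the E-box CAGCTG, runs of overlapping matches being joined.
Cacna2d1: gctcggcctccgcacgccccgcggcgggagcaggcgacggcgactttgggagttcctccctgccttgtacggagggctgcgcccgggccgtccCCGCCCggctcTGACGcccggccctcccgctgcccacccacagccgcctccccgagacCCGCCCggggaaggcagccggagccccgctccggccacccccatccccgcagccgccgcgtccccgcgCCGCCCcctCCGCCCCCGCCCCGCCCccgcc
Cacna2d3: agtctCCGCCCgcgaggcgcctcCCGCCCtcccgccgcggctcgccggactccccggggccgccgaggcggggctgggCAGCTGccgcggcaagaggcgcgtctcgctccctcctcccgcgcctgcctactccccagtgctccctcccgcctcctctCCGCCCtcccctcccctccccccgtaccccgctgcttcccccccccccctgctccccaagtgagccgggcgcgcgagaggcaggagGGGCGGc
GC content was 82.4% and 80.0%, against a median of 52.0% over 27025 promoters in the table. Both hold a GC box, which 32.9% of all promoters hold and 14 of the 30 members with an entry; TGACG is in the Cacna2d1 window and in 17.9% of all promoters, and CAGCTG in the Cacna2d3 window and in 12.8%. Neither holds TATAAA (13.0% of promoters), CCAAT (34.5%), the full TGACGTCA (1.62%) or TTCAGCACC, part of the RE1 element (0.285%). These matches describe the letters only.

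Cacna2d1 was highest in Slc17a6 neurons, gated by the vesicular glutamate transporter genes Slc17a6 and Slc17a7, at 435, 544 and 236 CPM in libraries 1, 2 and 4. No other subtype of the same libraries reached the Slc17a6 value. The next was Ppp1r1b/Crym at 120.0, 139.7, 328 and 205 CPM, and the lowest Cck/Greb1 at 45.8, 30.8, 96.1 and 35.4 CPM and Crh/Wif1 at 50.3, 12.2, 59.0 and 98.7 CPM. Slc17a6 neurons exceeded the mean of the others by 2.90 on the log2 scale (SE 0.27, adjusted p = 5.90e-17, edgeR quasi-likelihood test; 1.85% of genes were called higher) and the summed others by 2.25 (adjusted p = 1.51e-22). A Cacna2d1 UMI was seen in 50 of 69 Slc17a6 neurons (72.5%, exact 95% interval 60.4 to 82.5%) and in 25.6% of the other gated neurons. At 1000 UMIs per cell these were 33.8% and 8.99%, with 5 and 73 shallower cells left out. By library these shares ran from 21.1 to 60.3% in Slc17a6 and from 5.70 to 12.2% in the other gated neurons. Against the summed others Cacna2d1 was lower in Cck/Greb1 (-1.26, adjusted p = 1.79e-06), Crh/Wif1 (-1.20, 0.000234) and Six3 neurons (-1.32, 0.00881), where 3.24%, 3.31% and 0.685% of genes were called lower.

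Cacna2d2 ran from 216, 353, 274 and 303 CPM in Zic1 neurons and 270.1, 182, 315 and 217 in Six3 neurons down to 51.9, 20.6, 42.3 and 17.7 CPM in Cck/Greb1 neurons. The Cck/Greb1 and Zic1 values do not overlap. Cck/Greb1 fell below the mean of the others by 2.24 (SE 0.26, adjusted p = 5.75e-12, edgeR quasi-likelihood test), where 1.05% of genes were called lower. Slc17a8 neurons, which carry the third vesicular glutamate transporter, were also lower, at 72.1, 66.1, 99.6 and 57.4 CPM (-1.30, adjusted p = 0.00168, with 1.14% of genes called lower; without library 2 the adjusted p was 0.104). Zic1 neurons were higher (0.83, SE 0.20, adjusted p = 0.00471, with 1.79% called higher). Neither of these was called after thinning to 1000 UMIs (-0.82 and 0.67), and Cacna2d2 in Slc17a8 neurons was not called with no UMI of another list (-0.71, adjusted p = 0.730) or at most 5% mitochondrial UMIs (-1.07, 0.203).

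Among gates with more than 1 sum, Cacna2d3 had its highest mean levels in the Slc17a8, Ppp1r1b/Crym and Cck/Greb1 gates. It was at 84.1, 132, 144 and 172 CPM in Slc17a8 neurons, 64.1, 113, 158 and 159 CPM in Cck/Greb1 neurons and 62.4, 150.4, 180.0 and 106 CPM in Ppp1r1b/Crym neurons. In Tac2/Ebf1 neurons it was at 8.15, 6.86 and 6.78 CPM in libraries 1, 2 and 4, below each value of those 3 gates. The differences from the mean of the others were 1.42 in Slc17a8 (adjusted p = 0.000316), 1.35 in Cck/Greb1 (SE 0.24, 9.43e-06), 1.30 in Ppp1r1b/Crym (SE 0.27, 6.20e-05) and -2.53 in Tac2/Ebf1 (SE 0.48, 9.73e-05; edgeR quasi-likelihood test). With cells that hold no UMI of another subtype list, Cacna2d3 turned to -0.13 in Ppp1r1b/Crym neurons and was not called in Slc17a8 neurons (1.22, adjusted p = 0.337). With cells thinned to 1000 UMIs it was not called in Cck/Greb1 (1.39, adjusted p = 0.371), Slc17a8 (0.96, 0.789) or Tac2/Ebf1 neurons (-1.77). The share of all genes called in these directions was 1.77% in Slc17a8, 4.23% in Cck/Greb1, 10.3% in Ppp1r1b/Crym and 0.286% in Tac2/Ebf1 neurons. Zic1 neurons were lower in Cacna2d3 than the summed others (-1.69, adjusted p = 0.00875, with 1.32% called lower). As a share of the family's UMIs, Cacna2d3 made up 59.0 ± 16.2% (SD, n = 4) in Cck/Greb1 neurons and 42.5 ± 1.45% in Slc17a8 neurons, against 2.98% in Tac2/Ebf1 neurons and 18.2 ± 3.16% in all neurons. Cacna2d2 made up 74.1% in Six3 and 67.0% in Zic1 neurons, against 47.5 ± 5.55% in all neurons.

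**Figure D3:**
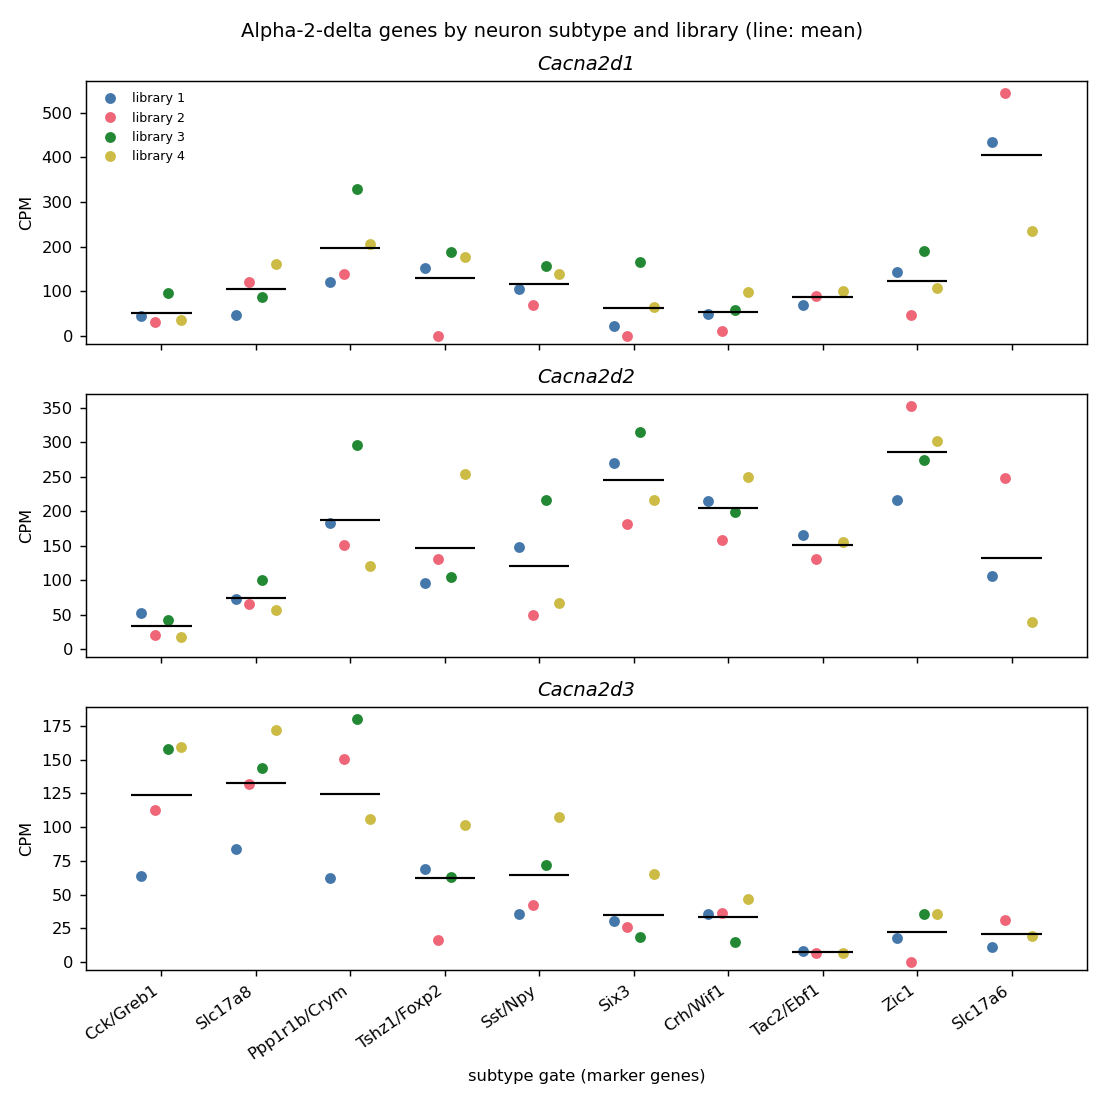
CPM of Cacna2d1, Cacna2d2 and Cacna2d3 in 10 neuron subtype gates, with a point per library and a line at the mean. Cacna2d1 is highest in Slc17a6 neurons (236 to 544 CPM), Cacna2d2 lowest in Cck/Greb1 neurons (17.7 to 51.9 CPM) and Cacna2d3 lowest in Tac2/Ebf1 neurons (6.78 to 8.15 CPM).

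Ppp1r1b/Crym neurons, gated by the striatal phosphoprotein DARPP-32 gene and by Crym, differed in the most channel genes: 10 were called higher and 1 lower than the mean of the others, of 30 tested, where 10.3% and 4.89% of 8739 genes were. The median difference was 0.35 for the 30 genes and 0.08 for all genes. The limit of the low-count filter given above applies to these counts. A stricter gate, which allows no UMI of another subtype list, left Cacnb4 called (1.37, adjusted p = 0.000132, edgeR quasi-likelihood test), gave no value for Scn4b or Cacna1c and did not call the other 8. Scn4b, a beta subunit known for resurgent current and for striatal expression, was at 48.0, 64.5, 116 and 134 CPM. It had no UMI in the Slc17a8, Six3 and Zic1 gates, lay from 0 to 31.1 CPM in the Slc17a6 sums and was at most 14.7 CPM in every sum of the other gates, so no value of another gate overlapped the Ppp1r1b/Crym range. The difference was 5.32 from the mean of the others (SE 0.57, adjusted p = 1.00e-13) and 4.81 from their sum (SE 0.46, adjusted p = 2.53e-21, edgeR quasi-likelihood test). Scn4b is sparse outside this gate and can have passed the low-count filter through it alone. These p values are therefore no support of their own for the difference. A Scn4b UMI was found in 30 of 160 Ppp1r1b/Crym neurons (18.8%, exact 95% interval 13.0 to 25.7%), 12 of 1170 other gated neurons (1.03%) and 0 of 916 oligodendrocytes (upper bound 0.402%). Scn2b ends 8.32 kb before Scn4b on chromosome 9 (chr9:45117782-45130070 and chr9:45138395-45154152, both plus strand), and Scn2b was among the genes not called across subtypes.

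Calcium channel beta genes were higher in the same gate. Cacnb4 was at 432, 441, 561 and 545 CPM, above all other gates with more than 1 sum, which lay between 123 and 345 CPM (1.10, SE 0.13, adjusted p = 1.18e-11, edgeR quasi-likelihood test); the single Prkcd sum was at 456 CPM. Cacnb1 was at 72.0, 53.7, 148 and 106 CPM (1.32, SE 0.30, adjusted p = 0.000392; stricter gate 1.63, adjusted p = 0.154). Of the pores the R-type Cacna1e was higher (0.95, SE 0.25, adjusted p = 0.00249), and not called without library 1 (0.75, adjusted p = 0.0907) or 4 (0.69, 0.147), with the stricter gate (1.36, 0.121) or after thinning (1.14, 0.0747). The L-type Cacna1c was called against the mean of the others (1.80, adjusted p = 0.0474) but not against their sum (0.97, 0.187), nor without library 2 (1.03), 3 (1.51) or 4 (2.03). Cacna1g, a T-type pore, had 0 of 537274 UMIs in Ppp1r1b/Crym neurons, which allows up to 5.58 CPM, and was called lower than in the summed others (adjusted p = 6.70e-05, edgeR quasi-likelihood test), where 9.85% of genes were called lower. Against the mean of the others Cacna1g was not called (-4.07), its error being undefined. Cacna2d1 and Cacna2d3, described above, were called higher too (1.40 and 1.30; 0.69 and 0.89 against the summed others), and with the stricter gate neither was (0.0011 and -0.13).

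AMPA receptor regulators differed in direction in this gate. Cacng3 was at 129.6, 172, 116 and 149 CPM (1.73, SE 0.25, adjusted p = 1.54e-08; stricter gate 1.83, adjusted p = 0.0857), above every other sum except 126 CPM in 1 Slc17a8 sum, which lay within its range. Cacng2 was at 48.0, 10.7, 31.8 and 28.3 CPM (-1.37, SE 0.35, adjusted p = 0.00183; not called with the stricter gate, -0.20, or after thinning, -0.35), and the other gates except Zic1 and Prkcd averaged 80.9 to 159 CPM. Cacng4 was higher by 0.74 (SE 0.19, adjusted p = 0.00218; without library 2 0.54, adjusted p = 0.0513), and with the stricter gate its direction turned (-0.052). After thinning it was not called (0.84, adjusted p = 0.348), nor at most 5% mitochondrial UMIs (0.54, 0.0517). Of the sodium channel genes, Scn3b was higher by 0.71 (adjusted p = 0.0244; without library 2 0.56, 0.124, and without library 4 0.76, 0.0530), nor was it called with the stricter gate (0.43) or after thinning (0.41). Scn1a was not called against the mean of the others (-0.55, adjusted p = 0.0868) and was lower than in the summed others (-0.73, 0.00389). All adjusted p values here are from edgeR's quasi-likelihood test.

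**Figure D4:**
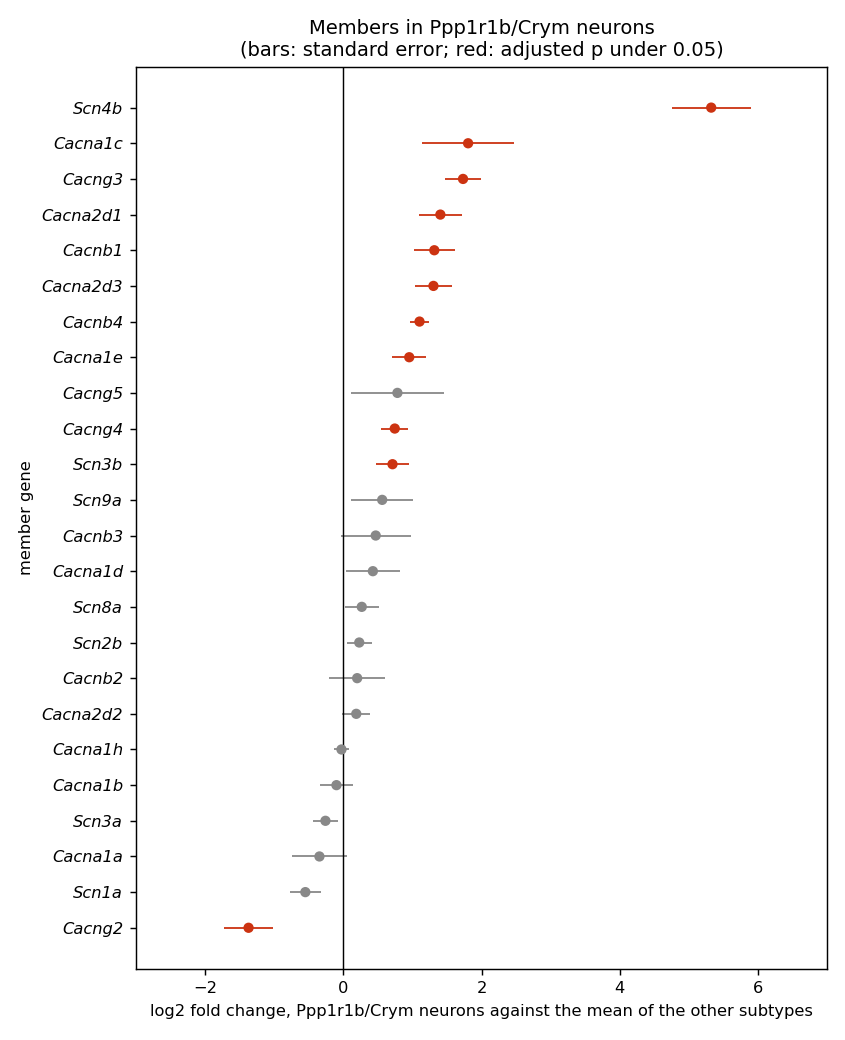
Log2 difference of Ppp1r1b/Crym neurons from the mean of the other subtypes, with its standard error, for 24 of the 30 tested channel genes; red marks adjusted p under 0.05. Cacna1g, Scn7a and Hcn3 are left out because a subtype at 0 leaves their error undefined, and 3 further tested genes are not shown here; Scn4b lies farthest right at 5.32 and Cacng2 is the only red gene to the left of 0.

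In the remaining subtypes few channel genes were called. Crh/Wif1 neurons, gated by corticotropin-releasing hormone and Wif1, had Scn1a at 198, 249, 287 and 259.8 CPM (0.72, SE 0.16, adjusted p = 0.00123, edgeR quasi-likelihood test). Scn1a was not called there with the stricter gate (0.24), after thinning (1.25) or at most 5% mitochondrial UMIs (0.53). The same neurons had Hcn3 at 39.5, 30.4, 22.1 and 36.4 CPM (1.69, adjusted p = 0.0245), where 4.03% of genes were called higher. Hcn3 was not called against the summed others (1.19, adjusted p = 0.0648) nor without library 1 (1.36), 2 (1.59) or 4 (1.84). Zic1 neurons had Cacng2 at 27.0, 47.1, 47.7 and 26.7 CPM (-1.32, adjusted p = 0.0401, where 0.355% of genes were called lower), not called without library 1 (-1.17), 3 (-1.46) or 4 (-1.05). Tshz1/Foxp2 neurons had Cacng5, a regulator of AMPA receptors, at 48.2, 49.0, 52.3 and 76.1 CPM (2.27, SE 0.59, adjusted p = 0.0179, where 1.46% were called higher), not called without library 1 (2.30) or 2 (1.91), with the stricter gate (2.40) or at most 5% mitochondrial UMIs (1.93). Tac2/Ebf1 neurons had Scn3a at 132, 68.6 and 156 CPM (-0.74, SE 0.19, adjusted p = 0.00792), not called without library 1 (-0.80) or 2 (-0.54), with the stricter gate (-1.06) or after thinning (-0.94).

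Scn7a, which encodes the sodium-sensing channel NaX, was sparse: Cck/Greb1 neurons held 15 UMIs (30.5, 10.3, 11.5 and 8.86 CPM) and Slc17a6 neurons 8 UMIs (15.3, 15.5 and 58.9 CPM in libraries 1, 2 and 4), while no other gate held more than 2. The differences of 3.31 (adjusted p = 0.000592) and 3.45 (adjusted p = 0.0086, edgeR quasi-likelihood test) depend on gates at or near 0, and neither was called by DESeq2 (adjusted p = 0.581 and 0.616). Cacna1g was at 36.1, 35.3, 47.7 and 53.4 CPM in Zic1, 24.4, 30.8, 30.7 and 44.3 in Cck/Greb1 and 19.1, 31.1 and 118 in Slc17a6 neurons, each called higher than the mean of the others (2.04, 1.70 and 2.19). Its adjusted p was 0.0335, 0.0373 and 0.0342, and none of the 3 was called against the summed others (0.84, 0.49 and 1.01). Crh/Wif1 neurons were lower in Cacna1g than the summed others (-1.99, adjusted p = 0.02), and Slc17a8 neurons were lower in Scn1a (-0.85, adjusted p = 0.0116, with 2.94% of genes called lower). In Sst/Npy and Six3 neurons 0 members were called against the mean of the others by edgeR's quasi-likelihood test and 0 by DESeq2, with 5 and 2 at an unadjusted p under 0.05 and 2.62% and 0.481% of all genes called.

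The partner lists also held genes that varied across subtypes: 2 of 9 tested sodium channel partners, 3 of 5 calcium channel partners, 2 of 5 of the HCN partner and leak list and 7 of 13 calcium handling genes were called, beside 22.3% of all genes.

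Last, GABAergic neurons with at least 1 Pnoc UMI (466 cells, median 5012 UMIs) were compared with those without (1826 cells, 2865.5 UMIs), the split closest to the study's title. Of the 42 genes 31 were tested and 1 was called, where 3.07% of 9745 genes were. Scn9a, the alpha subunit best known from pain-sensing neurons, was at 45.7, 100.8, 103 and 125 CPM in Pnoc-positive and 48.2, 49.7, 74.2 and 67.0 CPM in Pnoc-negative neurons. It was higher in 3 of 4 libraries, and the ranges overlap. The difference was 0.57 (SE 0.16, adjusted p = 0.0432, edgeR quasi-likelihood test); it was not called with Pnoc-negative cells matched in depth (0.46, adjusted p = 0.344), nor without library 2 (0.43), 3 (0.58) or 4 (0.44).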

How the data were processed

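Drop-seq libraries of BNST punches from 4 pools of 6 mice were analysed. The authors deposited raw UMI counts per gene and cell barcode; per the submitters' processing notes bcl2fastq 2.18.0.12, STAR 2.4.2a and Picard 2.2.4 were used with GRCm38. Annotation, counting strand and barcode selection are not given in the sources used here.

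Barcodes with at least 400 genes and at most 10% mitochondrial UMIs were kept, and Scrublet (scanpy 1.11.5, expected rate 0.05) removed 58 of 4239. A cell joined a class with at least 3 UMIs from at least 2 genes of its marker list and at least 2 in 3 of the UMIs of all lists, and a neuron joined a subtype with at least 2 UMIs of that list and at least 2 times those of the next. Lhfpl3, in the OPC list, was not used here because it is not listed in the tables. Counts were summed per library and class (at least 10 cells) and compared by the quasi-likelihood test of edgeR 4.0.16 under R 4.3.3, with TMM factors, filterByExpr (minimum count 10, or 5 for subtypes), library as a block and Benjamini-Hochberg adjustment over all genes. SE is the log2 difference over the square root of F. The block was used because the sums of a library come from the same mice; their deviations correlated at 0.18 to 0.57 over 1671 genes. Intervals on shares of cells pool the cells of all libraries and cover counting error only, not the spread between libraries. Replicates are pools of separate animals only as far as the labels say so.

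On simulated data with 200 genes changed 2-fold, the fit recovered 29% of them between neurons and oligodendrocytes (4818 genes tested) with 4.92% of calls wrong, and 30.5% between Ppp1r1b/Crym and Sst/Npy neurons (8910 genes) with 3.17% wrong. Between neurons and astrocytes it recovered 13%, with 4 of 30 calls wrong (13.3%). Between neurons and OPC it recovered 4.5%, with 32 of 41 wrong, and between neurons and vascular cells 1.5%, with 0 of 3 wrong. For the Pnoc split it recovered 40.5%, with 5 of 86 wrong. Recovery is a share of all 200 changed genes, whether or not they passed the low-count filter. Those tested numbered 101, 96, 84 and 101 for oligodendrocytes, astrocytes, OPC and vascular cells, 200 for the subtypes and 192 for Pnoc. Positions are from GENCODE on GRCm38. The members, gene lists and gates were chosen with earlier results of these data known. Genes given with a value in each library were the 12 with the highest mean CPM in neurons, those called and higher in a non-neuronal class, the 10 with the smallest p across subtypes and those called by Pnoc; partner genes were up to 3 per list with the largest called change. Some members are not reported here by name. Other genes, among them Cacna1d, Cacng7, Cacnb1, Cacng5, Hcn2, Hcn3 and Cacna2d4 with their values by library, were named after their values were seen.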

Additional observations from a re-analysis of the deposited data

Results flagged for a closer look

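Cacna2d1 in oligodendrocytes was at 27.6 CPM in library 4, apart from the 12.1 to 13.3 CPM of the other 3 libraries: the gap was 0.92 of the whole range, above Dixon's critical value of 0.829 for 4 values. It was the 1 of 23 sets of 4 library values searched that stood apart, and chance alone gives 1.15 of 23.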

How the results depend on the processing

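Cacnb4 and Scn4b in Ppp1r1b/Crym neurons, Cacna2d1 in Slc17a6 neurons and Cacna2d2 in Cck/Greb1 neurons kept their direction and call under every alternative that gave a value; Scn4b gave none after thinning or when no UMI of another subtype list was allowed, and Cacna2d1 in Slc17a6 none in the latter. Counts of called members moved with the number of genes tested and cells kept. Apart from the shares given above, the share of all genes called under each setting is not given here. The counts below therefore describe the settings and support nothing particular to the members. Between neurons and oligodendrocytes 9 were called, and 21 with at least 800 genes per cell, 19 with at most 5% mitochondrial UMIs, 21 with the gate at 9 in 10, 14 with cells thinned to 1000 UMIs, 34 with no low-count filter and 20 with 3 classes only. Between neurons and astrocytes 8 were called, and 17, 17 and 19 under the first 3 of these, 26 unfiltered and 17 with 3 classes. Between neurons and OPC 6 were called, and 1 at 5% mitochondrial UMIs, 3 with relative log expression factors, 12 unfiltered, 2 with DESeq2 and 3 to 9 leaving out each library; thinning, 800 genes or the stricter gate left no OPC sum. Between neurons and vascular cells 9 were called, and 4 at 5% mitochondrial UMIs, 8 with relative log expression factors, 16 with the stricter gate and 17 unfiltered. The gene lost with relative log expression was Cacna2d1 (1.66, adjusted p = 0.0543, edgeR quasi-likelihood test), which had 3 UMIs in vascular cells. Across subtypes 16 were called, and 6 after thinning, 5 when no UMI of another subtype list was allowed, and 11 to 13 leaving out each library. Of subtype differences 28 were called, and 7, 6 and 17 to 24 under the same settings. For Pnoc 1 was called, and 0 after thinning, 0 depth-matched, 2 unfiltered, 0 with DESeq2 and 0 to 1 leaving out each library. Without the library block 12 were called across subtypes, 22 as subtype differences and 0 by Pnoc (Scn9a 0.61, adjusted p = 0.867).

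Directions turned for Scn3a between neurons and OPC (-0.21 at 5% mitochondrial UMIs, -0.054 with relative log expression, -0.094 with DESeq2, -0.39 to 0.82 leaving out each library), for Cacna2d1 between OPC and oligodendrocytes (0.67 at 5% mitochondrial UMIs, 0.30 with the wider gate), and, when no UMI of another subtype list was allowed, for Cacna2d3 (-0.13) and Cacng4 (-0.052) in Ppp1r1b/Crym neurons; the cause was not tested. The median of all tested genes between neurons and oligodendrocytes lay at 0.34 on the log2 scale with TMM and 0.21 with relative log expression, beside 5.07 and 4.94 for the 9 members. Few UMIs limit Hcn, Cacna2d4 and OPC values most.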
